A study of Mus musculus with 4 samples.

Results

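A group of 10 genes of the rapid transcriptional response were followed in mouse leukemic cells labelled Ezh2 KO and wild type (WT). They were the nuclear receptors Nr4a1 and Nr4a2, the immediate early response genes Ier2, Ier3 and Ier5, the Krüppel-like factors Klf2 and Klf6, the mRNA decay factor Zfp36, and the antiproliferative genes Btg1 and Btg2. Every probe set whose single gene symbol in the platform annotation was one of these names was taken, which gave 24 of the table's 45101 probe sets and 10 of its 18193 named genes. The leukemias carried the fusion gene MLL-AF9, and the cells were purified from bone marrow of C57BL/6 recipients. Total RNA was labelled and hybridised to 1-colour Affymetrix arrays, 1 per sample, with 2 Ezh2 KO and 2 WT samples. MLL-AF9 was thus shared by both groups, and neither donor strain nor age of the mice is in the labels. For the Ezh2 KO samples the labels conflict: the genotype entry names Ezh2, whereas the protocol entry has recipients that received Ink4a-/-Arf-/- marrow. The genotype entry gives the group its name here. Whether 2 samples of a group came from different mice is not stated, and the p-values therefore reflect just the spread among the arrays at hand, possibly a technical one.

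Immediate early genes are transcribed within minutes of a growth, stress or adhesion signal, from promoters whose factors are already present in the cell. Many of their products are transcription factors, and others end the response by shortening the life of mRNAs or by slowing division. Ezh2 is the enzyme of the Polycomb complex PRC2 and places methyl groups on lysine 27 of histone H3, a mark of silent genes. In mice, loss of Nr4a1 together with its relative Nr4a3 leads to acute myeloid leukemia, and Klf2 and the Btg genes hold lymphocytes in a resting state.

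For 9 of the 10 genes at least 1 probe set was higher in Ezh2 KO cells past the test, and Nr4a2 was the gene with none. All 24 probe sets had a mean intensity above the filter on dim probe sets, which was 21.93 intensity units, so all were tested. In Affymetrix names, an _a_at set matches several transcripts of 1 gene, an _s_at set may match transcripts of other genes, and an _x_at set may cross-hybridise, so values of the last 2 kinds are less certain. A probe set is described as called, or as having risen or fallen, where the limma adjusted p was under 0.05 over all 31526 probe sets tested. On that rule 15 of the 24 were called higher, 0 lower and 9 not called, while 3.91% of all tested probe sets were called higher, 3.39% lower and 7.31% in either direction. At an unadjusted p under 0.05, limma gave 18 higher and 0 lower among the 24, against 6637 of all 31526 in either direction. Both Ezh2 KO arrays exceeded both WT arrays in 21 of the 24 probe sets, against 27.9% of all tested probe sets, and the groups overlapped in the other 3. The 18 and the 21 both include 1433422_at of Nr4a2, whose mean passed the filter only through the Ezh2 KO arrays. The median log2 change of Ezh2 KO over WT was 0.70 over the 24 probe sets and 0.036 over all tested probe sets. The called rises ran between 0.41 and 1.19 on the log2 scale. With a single prior variance for all intensities, limma called 0 of the 31526 probe sets, of which 4978 had an unadjusted p under 0.05. Under that setting the lowest adjusted p among the 24 was 0.116.

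**Figure D1:**
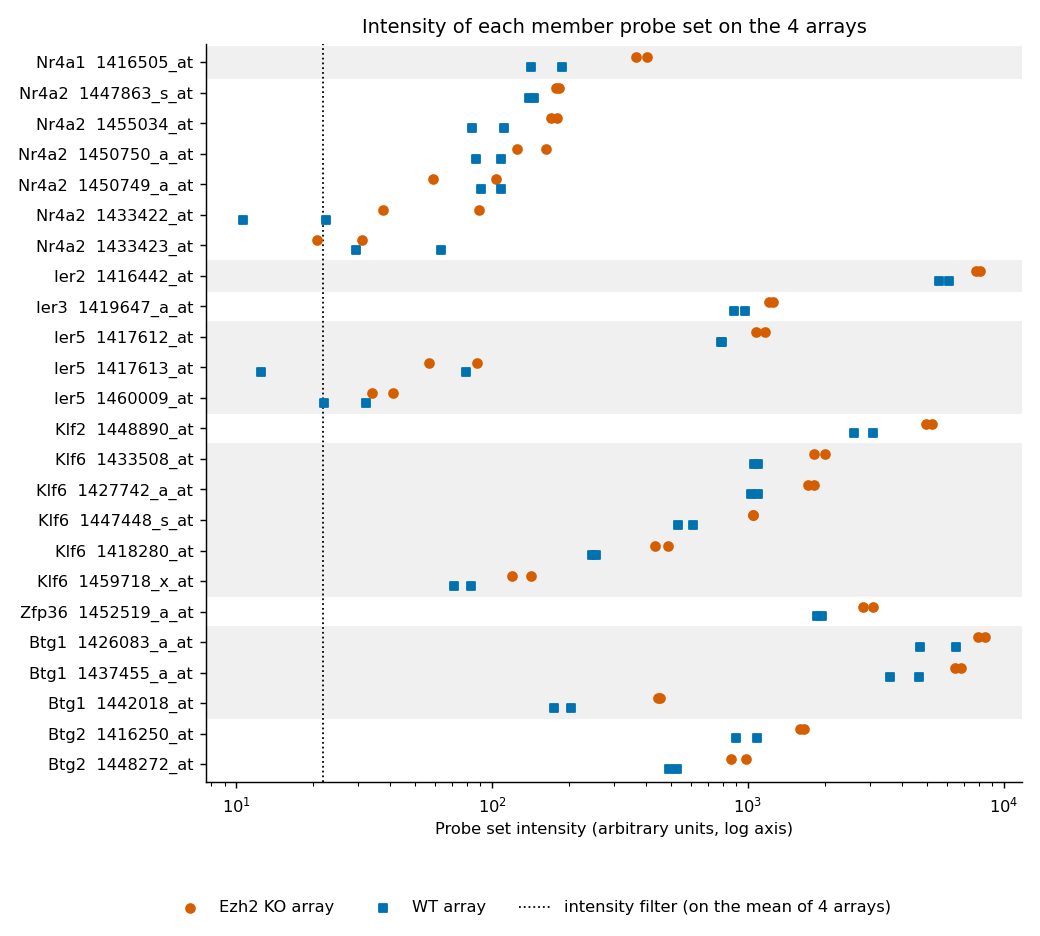
Deposited intensity (log scale, arbitrary units) of each member probe set on the 2 Ezh2 KO and the 2 WT arrays, with 1 point per array and a dotted line at the filter of 21.93. Both Ezh2 KO points lie above both WT points for 21 of the 24 probe sets, and the 3 probe sets that overlap belong to Nr4a2 and Ier5. The 21 include 1433422_at of Nr4a2, which passed the filter only through its Ezh2 KO arrays.

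The 4 arrays were alike in quality. Log2 intensities correlated at r = 0.982 between the Ezh2 KO arrays and 0.981 between the WT arrays, against 0.972 to 0.976 between groups, as a description across probe sets that are not independent replicates. The ratio of 3-prime to 5-prime signal of the actin control was 1.26 and 1.21 on the Ezh2 KO arrays and 1.24 and 1.21 on the WT arrays. The single Ezh2 probe set read 4990 ± 1.49 in Ezh2 KO cells and 5265 ± 70.0 in WT cells (mean ± SD, n = 2 arrays each), with limma giving a log2 change of -0.08 (SE 0.06, adjusted p = 0.555). The position of its probes with respect to the deletion was not analysed here, so it does not check the labels. In bulk RNA, fewer cells of a type and less RNA per cell cannot be told apart. Precision is limited throughout by having 2 arrays a group.

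Nr4a1, also called Nur77, is an orphan nuclear receptor that binds DNA without a known ligand and is induced by receptor signalling. Its 1 probe set (1416505_at) read 364 and 403 on the Ezh2 KO arrays, against 142 and 187 on the WT arrays. The lowest Ezh2 KO array thus lay well above the highest WT array. Nr4a1 was 2.23-fold higher in Ezh2 KO cells, with a log2 change of 1.16 whose 95% interval was 0.77 to 1.54 (SE 0.17, limma adjusted p = 0.00404).

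Nr4a2, or Nurr1, is a close relative of Nr4a1 and is best known for its role in dopamine neurons. Of its 6 probe sets 0 were called by limma, with 4 changes above 0 and 2 below, and 2 were higher at an unadjusted p under 0.05. Probe set 1455034_at read 171 and 179 in Ezh2 KO cells, against 83.6 and 111 in WT cells, a log2 change of 0.76 (95% interval 0.27 to 1.25, limma adjusted p = 0.0696). Its groups did not overlap, yet it missed the threshold. Probe set 1450750_a_at read 162 and 126 in Ezh2 KO cells and 86.3 and 109 in WT cells, a change of 0.49 (adjusted p = 0.276). The groups were also apart for 1447863_s_at, with 178 and 183 in Ezh2 KO cells and 146 and 139 in WT cells, a change of 0.31 (adjusted p = 0.386). For 1433422_at, the Ezh2 KO arrays read 88.8 and 37.6 and the WT arrays 22.5 and 10.6, a change of 1.23 (95% interval 0.17 to 2.28, adjusted p = 0.167). Its mean passed the filter on dim probe sets only through the Ezh2 KO arrays, and its WT readings lay where signal cannot be told from background. It is among the 2 counted above at an unadjusted p under 0.05. The remaining 2 probe sets had overlapping groups and changes of the opposite sign. They were 1450749_a_at, at 103 and 58.6 in Ezh2 KO cells and 90.7 and 108 in WT cells (-0.29, adjusted p = 0.661), and 1433423_at, at 30.9 and 20.6 in Ezh2 KO cells and 29.4 and 63.2 in WT cells (-0.53, adjusted p = 0.562). The difference between the receptors was not tested.

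The promoters of both receptors are shown because each carries several copies of the same short element, the core of the cyclic AMP response element (CRE) that CREB family factors bind. The 250 bases before the transcription start were taken from RefSeq on build GRCm38.p6. Capitals mark TGACG, or CGTCA where the element lies on the other strand.
Nr4a1, chr15:101266596-101266845, plus strand: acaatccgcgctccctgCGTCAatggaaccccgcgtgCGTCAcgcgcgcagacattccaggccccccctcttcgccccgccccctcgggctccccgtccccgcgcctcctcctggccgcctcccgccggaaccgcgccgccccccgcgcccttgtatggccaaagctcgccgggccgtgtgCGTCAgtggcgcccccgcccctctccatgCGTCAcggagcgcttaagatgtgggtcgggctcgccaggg
Nr4a2, chr2:57124004-57124253, minus strand: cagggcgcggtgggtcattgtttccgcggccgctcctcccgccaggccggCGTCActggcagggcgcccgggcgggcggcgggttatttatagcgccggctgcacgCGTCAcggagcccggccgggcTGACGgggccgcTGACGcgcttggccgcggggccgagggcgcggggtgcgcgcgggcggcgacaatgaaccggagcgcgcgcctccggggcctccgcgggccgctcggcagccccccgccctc
Nr4a1 had 4 CRE cores, starting 233, 213, 69 and 40 bases before the transcription start, and Nr4a2 also had 4, at 200, 144, 123 and 111 bases before it. The Nr4a1 window lies inside the RefSeq gene, before a start 12944 bases downstream of the gene's first base, whereas the other 8 windows end just before the first base of their genes. Which start the leukemic cells use was not analysed here.

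The 3 Ier genes encode small nuclear or stress-induced proteins and are named only for their fast induction. Ier2, a nuclear regulator of transcription, had 1 probe set (1416442_at) that read 7765 and 8076 in Ezh2 KO cells, against 6127 and 5588 in WT cells. Both Ezh2 KO arrays were higher, and the rise was 1.35-fold (log2 change 0.44, SE 0.07, limma adjusted p = 0.0056). Ier3 (IEX-1), which modulates cell survival under stress, read 1212 and 1257 in Ezh2 KO cells and 976 and 883 in WT cells with 1419647_a_at. Its rise was 1.32-fold (log2 change 0.41, SE 0.09, adjusted p = 0.0282). Ier5, whose product binds the phosphatase PP2A and acts on heat shock factor, had 3 probe sets. The brightest, 1417612_at, read 1079 and 1162 in Ezh2 KO cells, against 787 and 789 in WT cells, and rose 1.41-fold (log2 change 0.50, SE 0.09, adjusted p = 0.0109).

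The other two Ier5 probe sets were dim and not called. With 1417613_at the Ezh2 KO arrays read 87.4 and 56.5 and the WT arrays 12.4 and 79.4, so the groups overlapped and the WT arrays were far apart (log2 change 0.73, limma adjusted p = 0.497). Probe set 1460009_at read 41.0 and 34.1 in Ezh2 KO cells and 32.1 and 22.0 in WT cells (0.32, adjusted p = 0.732). The calls for all 3 Ier genes depended on the setting. After median centring of each array, the changes became 0.34 for Ier2 (adjusted p = 0.0787), 0.31 for Ier3 (0.16) and 0.40 for 1417612_at of Ier5 (0.0842), so none passed. Ier3 also missed the threshold without WT replicate 1 (adjusted p = 0.0503), without WT replicate 2 (0.122), without Ezh2 KO replicate 2 (0.0787) and without a filter (0.0521). Ier5 missed it without WT replicate 1 (0.0522) and as the mean of its probe sets (0.186).

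Klf2 is a zinc finger factor that maintains quiescence in T cells and an anti-inflammatory state in endothelium and monocytes. Its probe set 1448890_at read 5266 and 4979 in Ezh2 KO cells, against 2595 and 3093 in WT cells. Neither Ezh2 KO array came close to the WT readings, and Klf2 rose 1.80-fold (log2 change 0.85, SE 0.09, 95% interval 0.65 to 1.05, limma adjusted p = 0.000602), the lowest adjusted p among the 24 probe sets.

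Klf6, a factor induced by injury and active in macrophage inflammation, was measured by 5 probe sets, of which 4 were called. Probe set 1433508_at read 1807 and 1997 in Ezh2 KO cells and 1055 and 1098 in WT cells, a 1.75-fold rise (log2 change 0.81, limma adjusted p = 0.000625). With 1427742_a_at the readings were 1723 and 1807 in Ezh2 KO cells and 1099 and 1026 in WT cells (1.65-fold, log2 change 0.72, adjusted p = 0.00103). The groups were equally separate for 1447448_s_at and 1418280_at. The first read 1049 and 1047 in Ezh2 KO cells and 609 and 533 in WT cells (1.82-fold, 0.86, adjusted p = 0.00123), and the second 487 and 434 in Ezh2 KO cells and 255 and 246 in WT cells (1.79-fold, 0.84, adjusted p = 0.00558). The 4 called probe sets thus gave log2 changes between 0.72 and 0.86, and their 95% intervals overlapped. The dim 1459718_x_at read 120 and 142 in Ezh2 KO cells and 82.9 and 71.0 in WT cells, a change of 0.66 with an interval of 0.12 to 1.20 that missed the threshold (adjusted p = 0.145).

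Zfp36, or tristetraprolin, binds AU-rich elements of cytokine and early response mRNAs and brings them to the deadenylation machinery. With 1452519_a_at it read 2822 and 3077 in Ezh2 KO cells, against 1868 and 1943 in WT cells. The groups were well apart, and Zfp36 rose 1.54-fold (log2 change 0.63, SE 0.08, limma adjusted p = 0.00147).

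Btg1 and Btg2 are founding members of the BTG/TOB family, which binds the CCR4-NOT deadenylase and slows division, and Btg2 is also a target of p53. All 5 of their probe sets were called higher. Btg1 read 7948 and 8474 in Ezh2 KO cells and 4712 and 6535 in WT cells with 1426083_a_at, a 1.48-fold rise (log2 change 0.56, 95% interval 0.28 to 0.85, limma adjusted p = 0.0286). The WT arrays differed more from each other here than the Ezh2 KO arrays did. The same held for 1437455_a_at, at 6460 and 6824 in Ezh2 KO cells and 3594 and 4685 in WT cells (1.62-fold, 0.69, interval 0.45 to 0.94, adjusted p = 0.00548). Probe set 1442018_at read 455 and 446 in Ezh2 KO cells and 175 and 203 in WT cells, a 2.28-fold rise (1.19, interval 0.87 to 1.51, adjusted p = 0.00134). Its interval did not overlap that of 1426083_a_at, so probe sets of Btg1 gave unequal sizes of change, and the transcripts they match were not analysed here. Without WT replicate 1 the change of 1426083_a_at was 0.33 (adjusted p = 0.0753), and it also missed the threshold with median centring (0.47, 0.11), without a filter (0.0976) and with a robust prior (0.0503).

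Btg2 was read as 1651 and 1599 in Ezh2 KO cells, against 1086 and 898 in WT cells, with 1416250_at. The second probe set, 1448272_at, read 982 and 862 in Ezh2 KO cells and 528 and 491 in WT cells. Both separated the groups, with rises of 1.63-fold (log2 change 0.71, limma adjusted p = 0.00344) and 1.78-fold (0.83, adjusted p = 0.00201).

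The Btg promoters are printed for comparison with those of the receptors, again as the 250 bases before the RefSeq start on GRCm38.p6 with CRE cores in capitals.
Btg1, chr10:96616751-96617000, plus strand: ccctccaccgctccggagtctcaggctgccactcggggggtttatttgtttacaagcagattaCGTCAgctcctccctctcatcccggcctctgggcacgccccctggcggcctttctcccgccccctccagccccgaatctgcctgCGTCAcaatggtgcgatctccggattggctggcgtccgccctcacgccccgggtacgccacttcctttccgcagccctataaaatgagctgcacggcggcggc
Btg2, chr1:134079156-134079405, minus strand: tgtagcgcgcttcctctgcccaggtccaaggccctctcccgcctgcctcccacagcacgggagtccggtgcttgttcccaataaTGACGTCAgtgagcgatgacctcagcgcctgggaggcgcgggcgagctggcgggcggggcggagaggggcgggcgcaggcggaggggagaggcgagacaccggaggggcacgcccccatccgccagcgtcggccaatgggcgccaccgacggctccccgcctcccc
Btg1 had 2 CRE cores, starting 187 and 103 bases before the start. In Btg2 the 2 cores overlapped, 166 and 163 bases before the start, as a full element TGACGTCA.

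RefSeq gave a promoter window for 9 of the 10 genes, and Ier2 is named only. The CRE core TGACG was searched on both strands and was present in 5 of the 9 windows, those of Nr4a1, Nr4a2, Btg1, Btg2 and Klf2, against 17.8% of 32851 windows of the same length. A full element TGACGTCA, which contains 2 overlapping cores, was found in Btg2 alone among the 9 and in 1.55% of all windows. The AP-1 site TGANTCA was in 0 of the 9 and 6.75% of all windows, and the serum response element known as the CArG box was in the window of Zfp36 and 1.47% of all windows. The GC box GGGCGG was in 9 of 9 against 32.7%. The TATA box TATAAA was in those of Nr4a2 and Btg1 against 12.4%, and CCAAT was in 5 of 9 against 33.8%. The element AAAGGTCA that Nr4a receptors bind as monomers was in 0 of the 9 and 1.34% of all windows. GC content was 54.4% to 80.0% in the 9 windows, against a median of 52.4% over all windows, and GC-rich windows hold more GC-rich words. These matches describe letters in a window and do not show binding.

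**Figure D2:**
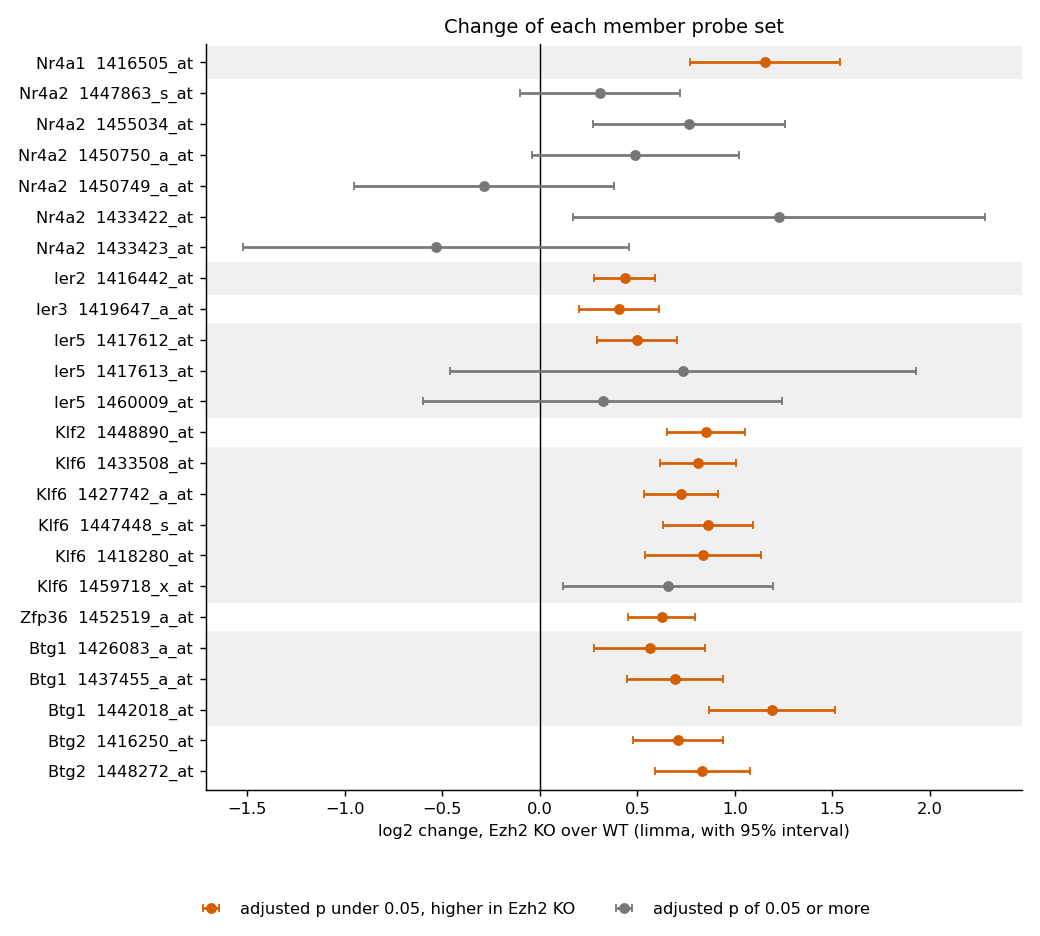
Log2 change of Ezh2 KO over WT (x axis) for each member probe set, with its 95% interval from limma, coloured where the adjusted p was under 0.05. The 15 called probe sets lie between 0.41 and 1.19, and the 2 changes below 0 belong to Nr4a2.

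Gaps between arrays of the same group were read for the called members. Within a group, the 15 called probe sets differed by a median of 0.08 on the log2 scale between the Ezh2 KO arrays and 0.14 between the WT arrays. The largest such gaps were 0.19 in Ezh2 KO cells and 0.47 in WT cells, the second being that of 1426083_a_at of Btg1. Over 7116 probe sets with a mean intensity above 1000, the median gaps were 0.078 in Ezh2 KO cells and 0.077 in WT cells. The comparison is unlike, as called members such as 1416505_at of Nr4a1 were dimmer than 1000. The call itself also favours probe sets with small gaps. The called members did not follow 1 array: WT replicate 2 exceeded WT replicate 1 in 8 of the 15, and Ezh2 KO replicate 1 exceeded replicate 2 in 6.

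**Figure D3:**
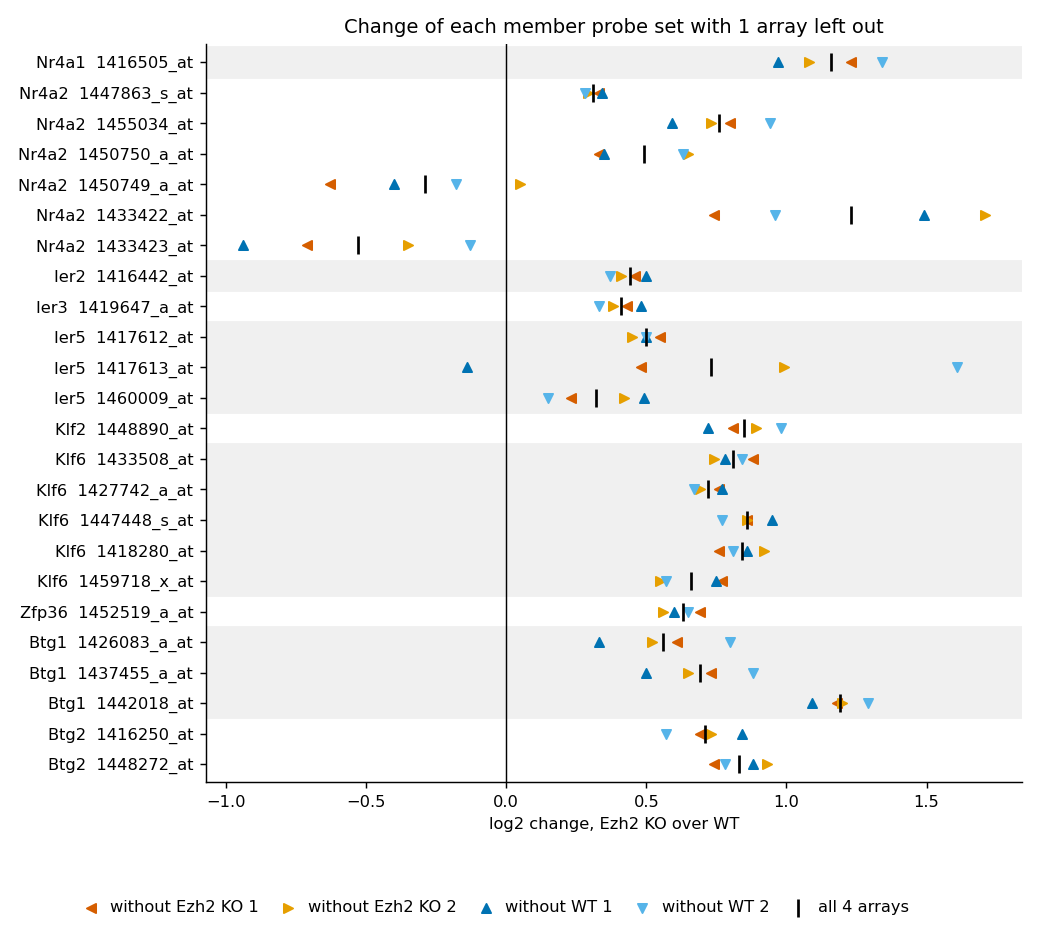
Log2 change of Ezh2 KO over WT (x axis) for each member probe set with all 4 arrays and with each array left out in turn. In each of the 15 called probe sets both Ezh2 KO arrays exceeded both WT arrays, so leaving out 1 array could not reverse the sign. The lowest change among the 15 was 0.33.

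Leaving out an array left 15 member probe sets called higher without Ezh2 KO replicate 1, 14 without Ezh2 KO replicate 2, 12 without WT replicate 1 and 14 without WT replicate 2. In such fits the lone array of a group is assumed to vary like the arrays of the other group.

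Relatives of the members were read through 1 probe set per gene, that of highest mean, with p-values adjusted over all probe sets. Of 22 paralogs listed, 20 had a probe set and 19 were tested. Of these, 5 were called higher and 0 lower, with a median log2 change of 0.35. At an unadjusted p under 0.05 in limma, 10 were higher and 0 lower, against 6637 of 31526 tested probe sets in either direction. Over 13928 genes read the same way, 4.52% were called higher and 4.66% lower, with a median of 0.006. The members read the same way had 9 of 10 called higher and a median of 0.59. Klf9, a factor induced by glucocorticoid and thyroid hormone, read 1409 and 1349 in Ezh2 KO cells and 757 and 735 in WT cells (log2 change 0.87, limma adjusted p = 0.000453). Tob1, a BTG/TOB family member, read 1098 and 1032 in Ezh2 KO cells and 562 and 662 in WT cells (0.79, adjusted p = 0.00265). Both sets of readings were without overlap. Of 7 tested probe sets of Klf9, 4 were called higher, and the changes of the 7 ran between 0.04 and 1.18. As the mean of its probe sets, however, the change of Tob1 was 0.41 (adjusted p = 0.235).

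A further 3 Krüppel-like factors were called. Klf3, a repressor, read 1739 and 1863 in Ezh2 KO cells and 1133 and 1258 in WT cells (log2 change 0.59, limma adjusted p = 0.00422), though the mean of its probe sets was not called (0.48, 0.154). Klf11 read 475 and 509 in Ezh2 KO cells and 333 and 309 in WT cells (0.59, adjusted p = 0.0209), and Klf7 read 846 and 736 in Ezh2 KO cells and 583 and 471 in WT cells (0.58, adjusted p = 0.0278). The groups were apart for all 3. These values are of the brightest probe set of each gene. All 4 tested probe sets of Klf7 were called higher (0.58 to 0.83), and 2 of 6 of Klf3 (0.30 to 0.70). The settings that follow for Klf7 concern its brightest only. Klf7 and Klf11 lost their calls with median centring (adjusted p = 0.0549 and 0.0714) and without WT replicate 2 (0.11 and 0.0743). Klf7 also did without Ezh2 KO replicate 1 (0.0908) and without a filter (0.0701), and Klf11 without WT replicate 1 (0.0548) and without Ezh2 KO replicate 2 (0.0748). Klf4, which drives monocyte differentiation, missed the threshold with its brightest probe set (0.69, adjusted p = 0.0602), while its other probe set passed (0.96, adjusted p = 0.037). The brightest passed when 1 probe set per gene was tested (0.0466), with the filter at the 50th percentile (0.0494) and as the mean of both (0.82, 0.0249).

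Apart from Tob1, no tested paralog outside the Krüppel-like factors was called, with p-values adjusted over all probe sets. Btg4 was dim and had a change of 0.16 (limma adjusted p = 0.857), and Btg3 had no probe set with a single symbol. Nr4a3, the remaining Nr4a receptor, read 51.0 and 14.5 in Ezh2 KO cells and 31.3 and 17.4 in WT cells, with overlapping groups (log2 change 0.19, limma adjusted p = 0.888). Zfp36l1 and Zfp36l2, which bind the same AU-rich elements as Zfp36, had changes of 1.02 (adjusted p = 0.102) and 0.23 (adjusted p = 0.0684). Zfp36l1 was dim, at 93.2 and 79.4 in Ezh2 KO cells and 27.1 and 42.5 in WT cells. Zfp36l2 passed with quantile normalization (adjusted p = 0.046) and when 1 probe set per gene was tested (0.042). Tob2 had a change of 0.25 (adjusted p = 0.0811, or 0.0484 when 1 probe set per gene was tested) and Ier5l one of 0.35 (adjusted p = 0.604). Counted over all probe sets of the paralogs, 13 of 42 tested were called higher and 0 lower, against 3.91% and 3.39% of all tested probe sets.

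**Figure D4:**
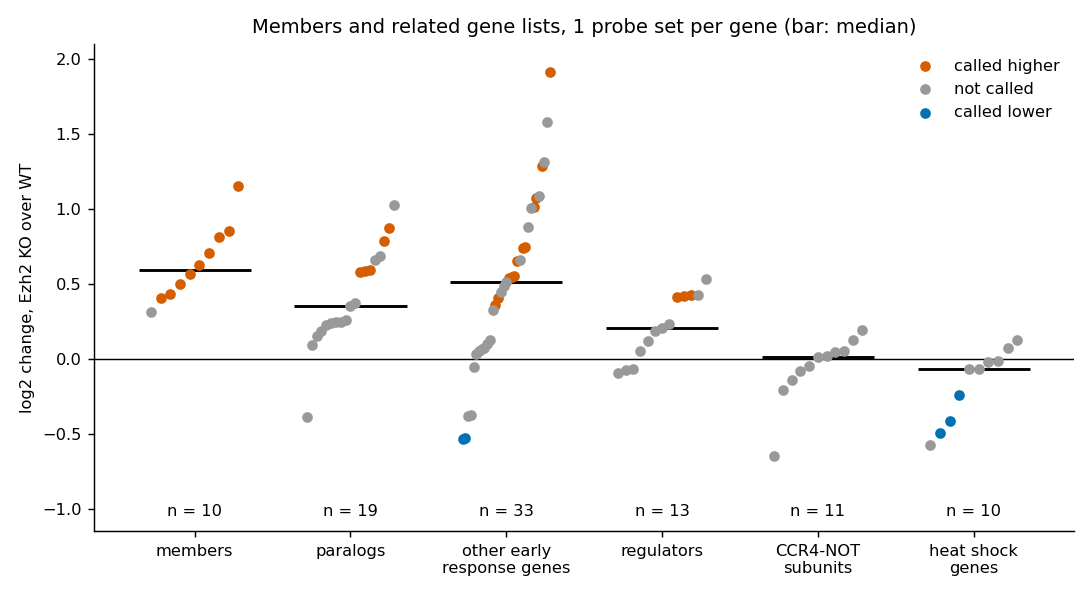
Log2 change of Ezh2 KO over WT (y axis) for each tested gene of the members and of 5 related lists, with 1 point per gene, called genes in colour and a bar at each median. The medians are 0.59 for the members, 0.35 for the paralogs, 0.51 for other early response genes and 0.01 for CCR4-NOT subunits. Among other early response genes, Plk2, Dusp5 and Socs3 passed the filter only through the Ezh2 KO arrays, and Fosl1 only through the WT arrays.

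Other early response genes included 37 genes, of which 33 were tested, as Arc, Ccn1, Egr4 and Maff lay below the filter. Of the 33, 12 were called higher and 2 lower, against 4.52% and 4.66% of 13928 genes read the same way. Their median log2 change was 0.51, or 0.45 over 25 genes with the filter at the 50th percentile. Plk2, Dusp5 and Socs3 passed the filter only through the Ezh2 KO arrays, and Fosl1 only through the WT arrays. None of these was called. Egr1, a zinc finger factor induced by growth signals, had the largest rise of the list, with 7401 and 6090 in Ezh2 KO cells and 1717 and 1827 in WT cells (3.76-fold, log2 change 1.91, limma adjusted p = 7.33e-06). The list did not move one way, since Myc, which drives growth, read 2309 and 2214 in Ezh2 KO cells and 3265 and 3300 in WT cells (-0.53, adjusted p = 0.00203). Gadd45b, a stress response gene, was the second that fell (-0.53, adjusted p = 0.0072), and it missed the threshold without WT replicate 1 (adjusted p = 0.0533). With median centring, 8 of the 33 were called higher.

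Known regulators of these promoters were listed as well, among them the serum response factor Srf, its cofactors, Creb1 and the Mef2 factors. Of 13 tested, 3 were called higher and 0 lower, against 4.52% and 4.66% of 13928 genes read the same way, with a median of 0.21. At an unadjusted p under 0.05 in limma, 4 were higher and 0 lower, against 6637 of 31526 tested probe sets in either direction. The called genes were Mef2a, Mef2c and the Srf cofactor Mrtfa. Of these, Mef2a changed most, reading 1034 and 1124 in Ezh2 KO cells and 756 and 844 in WT cells (0.43, limma adjusted p = 0.0323). The count rested on the setting, since 0 were called with median centring, without a filter or without WT replicate 1, 1 without either Ezh2 KO replicate, and 4 without WT replicate 2.

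The CCR4-NOT complex, which Btg and Zfp36 proteins bring to mRNAs, had 0 of 11 tested subunits called in either direction. Over 13928 genes read the same way, 4.52% were called higher and 4.66% lower. At an unadjusted p under 0.05 in limma, 1 subunit was higher and 1 lower, against 6637 of 31526 tested probe sets in either direction. The median log2 change of the subunits was 0.01. Of the genes tied to Klf2 in T cells, 3 were tested and 1 was called. That was Cd69, an early activation antigen that holds lymphocytes in tissue, at 7800 and 8470 in Ezh2 KO cells and 5110 and 5596 in WT cells (1.52-fold, log2 change 0.60, limma adjusted p = 0.0014). Both Ezh2 KO readings of Cd69 lay above those of WT.

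Heat shock genes, which respond to protein damage and to handling, and markers of cell types were read beside the members. Of 10 heat shock genes, 0 were called higher and 3 lower, against 4.52% and 4.66% of 13928 genes read the same way. At an unadjusted p under 0.05 in limma the counts were also 0 and 3, and the median log2 change was -0.07. Hspa1a read 2562 and 2564 in Ezh2 KO cells and 3467 and 3774 in WT cells (-0.49, limma adjusted p = 0.00382). Its near-identical copy Hspa1b, which may share probes with it, was not called (0.07, limma adjusted p = 0.663). Hspa1b read 14749 and 14896 in Ezh2 KO cells and 13160 and 15120 in WT cells. When a gene's probe sets were averaged, 1 of 9 heat shock genes tested was called higher and 4 lower. Hspe1 (-0.41, adjusted p = 0.00594) and Hspd1 (-0.24, adjusted p = 0.0434), mitochondrial chaperones, were the others called lower with 1 probe set per gene. Hspd1 lost its call with median centring (adjusted p = 0.0837), without a filter (0.095) and without any 1 of the 4 arrays (0.0778 to 0.163).

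Among 9 markers of myeloid leukemic cells, all tested, 4 were called higher and 1 lower, against 4.52% and 4.66% of 13928 genes read the same way. Lyz2, the lysozyme of macrophages and granulocytes, had 11767 and 10636 in Ezh2 KO cells and 5643 and 5865 in WT cells (log2 change 0.96, limma adjusted p = 6.98e-05). Itgam, Cd33 and Csf1r were the others called higher, and the Fc receptor Fcgr3 fell (-0.72, adjusted p = 0.000235). Csf1r lost its call with median centring (0.39, limma adjusted p = 0.0731) and as the mean of its probe sets (0.33, 0.0539). The summed intensity of the 9 markers was 77046 and 71590 in Ezh2 KO cells and 65007 and 65526 in WT cells. Markers of erythroid, megakaryocyte, B, T and NK, stromal and endothelial cells comprised 15 tested genes, of which 0 were called higher or lower. At an unadjusted p under 0.05 in limma, 1 was higher and 1 lower, against 6637 of 31526 tested probe sets in either direction. A further 8 of these marker genes had a probe set below the filter. The summed intensity of all 23 was 2179 and 2170 in Ezh2 KO cells and 2097 and 1926 in WT cells. Klf1 stands in both the erythroid markers and the paralogs, and Srf in both the early response genes and the regulators. The part of the myeloid markers' changes in those of the members was not tested.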

How the data were processed

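The deposited values are linear intensities, 1 per probe set and array. The submitters' processing notes name Affymetrix Expression Console, whose version and summary algorithm are not given in the sources used here. On each array the mean, trimmed by 2% at each end, was 500.003, a scaling that removes any difference in total mRNA per cell. Groups and replicate numbers came from the sample titles.

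Of 45101 probe sets, 34945 carried 1 symbol in the platform annotation, 932 several and 9160 none, and 64 controls were not analysed. All 24 member probe sets matched a RefSeq gene of GRCm38.p6, with 0 symbols changed. The 31526 probe sets with a mean above the 30th percentile of non-control probe sets, 21.93, were tested as log2(intensity + 16) in limma 3.58.1 (R 4.3.3; lmFit, eBayes with an intensity trend), with Benjamini-Hochberg adjustment over all of them. Residual degrees of freedom were 2, and 9.3 with the prior (median). Since 16 is added before the log, folds of dim probe sets are understated. Detection calls were not used. The fit was tested on simulated data.

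The members and gene lists were chosen with earlier results of these data known. All members were named, and of each list the called gene with the largest rise and largest fall, plus direct paralogs. Further called genes of lists were named after their values were seen, and so were the genes below the filter. Alternatives were quantile normalization, median centring, other filters and pseudocounts, other priors, the replicate number as a block, 1 probe set per gene or their mean, an adjusted p of 0.10, and leaving out each array. They were applied to the lists after seeing the data. Python 3.11.15 and matplotlib 3.10.9 drew the figures.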

Additional observations from a re-analysis of the deposited data

How the results depend on the processing

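Of the 15 member probe sets called higher, 11 kept their call under every alternative applied to them, other than the single prior variance. The 4 that did not belonged to Ier2, Ier3, Ier5 and Btg1, as given above. Settings with 1 value per gene were read only at the brightest probe set of each gene. No member probe set was called lower under any of the alternatives. The count called higher was 0 with a single prior variance, where 18 had an unadjusted p under 0.05 in limma. It was 9 of 10 genes with 1 probe set per gene, and 8 of 10 when a gene's probe sets were averaged, as Ier5 then lost its call. Without each array it was 12 to 15. Over all probe sets, 2303 were called, against 1392 without a filter, 0 with a single prior variance, 1051 when a gene's probe sets were averaged, 3656 at an adjusted p under 0.10 and 1175 to 2161 without each array, the lowest without WT replicate 1. Of these counts, that with averaging is of 12648 genes, that without a filter of 45037 probe sets, and the others of 31526 probe sets. As the totals are unlike, a lower count does not show a lower share called. With median centring the median log2 change over all probe sets was -0.0607, against 0.0363, and the calls were 600 higher and 1130 lower, against 1234 and 1069. The cause of these differences was not tested. Reversed signs occurred only among changes that were not called. For the 15 called member probe sets, whose groups did not overlap, leaving out an array could not reverse the sign. Without each array, 1450749_a_at of Nr4a2 ranged between -0.63 and 0.05, and 1417613_at of Ier5 between -0.14 and 1.61. Nr4a3 ranged between -0.07 and 0.75 over the 3 fits that held it, as without Ezh2 KO replicate 1 its mean lay below the filter. As the mean of its probe sets, Ier5l was at -0.13.

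The same replicate numbers in both groups are not shown to pair the samples: deviations of same-numbered arrays correlated at 0.036 over 31526 probe sets. With the replicate number as a replicate block, 3715 probe sets and 16 member probe sets were called, 1455034_at of Nr4a2 being the addition (adjusted p = 0.0402). Of 19 paralogs, 8 were then called, against 5, with Klf4 (0.0343), Zfp36l2 (0.0277) and Tob2 (0.0292) added; with 1 probe set per gene tested it was also 8. With 2 arrays a group, changes of dim probe sets near the filter are poorly limited, as the wide intervals of Nr4a2 and Ier5 show.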
